A study of Ciona robusta with 15 samples.

Results

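The effect of adding the forkhead factor Foxa.a to the T-box factor Bra was read from 6 RNA-sequencing libraries of whole Ciona robusta embryos, 3 from embryos given Bra with Foxa.a and 3 from embryos given Bra without it, out of 15 libraries in the series. These libraries were chosen by their labels alone. Fertilised, dechorionated eggs had been electroporated with plasmids whose inserts were driven by the Etr1 enhancer, taken from a gene active in the developing nervous system. Bra embryos carried Etr1>Venus-Bra, a fusion of Bra to a fluorescent protein, and Bra+Foxa.a embryos carried the same plasmid and Etr1>Foxa.a-Myc, so the Bra plasmid is common to both groups. As described, embryos given Foxa.a thus carried an additional Etr1 plasmid, also where Mnx was given. Foxa.a itself and the presence of an additional plasmid cannot be told apart in these comparisons. The other 9 libraries, 3 in each group, are control embryos (Etr1>H2B-Venus), Bra+Mnx embryos (Etr1>Venus-Bra and Etr1>Mnx-HA) and embryos given all 3 factors. Embryos were kept at 21 °C in artificial seawater, and each sample held 300 of them, taken at Hotta stage 19.5. The sources used here give neither the strain, nor the amount of each plasmid, nor the share of embryos that took it up. Nothing in the labels says that the replicates came from separate parents, so p-values stand against the spread between these samples alone, which may be technical. In whole embryos, fewer cells of a type and less RNA per cell cannot be told apart.

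Bra is the transcription factor that specifies the notochord of the ascidian larva, the rod of cells that stiffens the tail. Foxa.a acts early in the lineages of notochord and endoderm and lies upstream of Bra there. Mnx is a homeodomain factor known for motor neurons in vertebrates. Placing such factors under a neural enhancer asks which genes each can switch on or off there, and the comparison of Bra+Foxa.a with Bra asks what Foxa.a adds once Bra is already present.

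The 6 libraries held 19923376 to 26460260 reads and the 15 libraries 17689915 to 26460260. Reads were recovered from the deposited normalised values and divided by 1 set of size factors over all 15 libraries. Levels below are these normalised reads. Differences are log2 fold changes on the log2(normalised reads + 1) scale with their standard error, a scale on which changes of weakly read genes come out too small. A gene was called at an adjusted p under 0.05 in a limma fit of all 15 libraries with the replicate number as a block. The files give genes only as KH2012 gene models. Names are used here for 17 models whose name and identifier were paired from general knowledge of Ciona, and neither the files nor the reference table used here annotates them, so each name holds only as far as that pairing does.

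Foxa.a (KH.C11.313) was read first, since its level checks the labels. It stood at 6792, 8334 and 6531 normalised reads in Bra replicates 1, 2 and 3, and at 11928, 11676 and 12459.9 in Bra+Foxa.a replicates 1, 2 and 3. Every Bra+Foxa.a library lay above every Bra library, and the rise was 0.74 ± 0.10 (adjusted p = 1.79e-04, limma). Reads of the plasmid and of the embryo's own gene cannot be told apart, and control embryos already had 5544 ± 281 (SD, n = 3). The extra Foxa.a was of like size on top of Mnx, 8562 ± 1216 in Bra+Mnx against 13868 ± 939.7 with all 3 factors (0.70 ± 0.10, adjusted p = 5.98e-04), and the 2 differences differed by -0.04 ± 0.14 (adjusted p = 0.986).

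Total Bra (KH.S1404.1) stood at 963, 1449 and 798 normalised reads in the Bra libraries and at 1202, 1332 and 1090.3 in the Bra+Foxa.a libraries. The 2 groups overlapped, and the difference of 0.22 ± 0.11 did not pass (adjusted p = 0.398). The value moved with single Bra libraries: it was 0.38 without Bra replicate 2 (adjusted p = 0.0307) and 0.08 without Bra replicate 3 (adjusted p = 0.802). The amount of Bra is therefore not shown to be equal in both groups, and its part in the differences below was not tested. Mnx (KH.L128.12) had 366, 448 and 403 normalised reads with Bra and 224, 343 and 278 with Bra+Foxa.a. Its groups did not overlap, but the difference of -0.54 ± 0.19 did not pass (adjusted p = 0.137, and 8.71e-04 where only the 6 libraries entered the fit).

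The driver gene and 5 of the 7 genes on the neural list fell when Foxa.a was added, calls that all rest on the replicate block. Celf3/4/5/6 (KH.C6.128), the RNA-binding protein also called Etr whose enhancer drives the plasmids, stood at 5357, 6337 and 5255 normalised reads with Bra and at 3359.7, 4150.0 and 4294 with Bra+Foxa.a. All Bra+Foxa.a libraries lay below all Bra libraries, and it fell by 0.52 ± 0.09 on the log2 scale (adjusted p = 0.00142, and 0.156 without the block). Since this enhancer drives all the plasmids, whether their output changed too was not tested.

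None of the 7 neural genes rose, and the list's median was -0.53, against -0.01 for all 14260 gene models tested and a called share of 2.43% in this direction. The lists of named genes were chosen with earlier results of these data known, so values set beside all models only describe them. Ebf (KH.L24.10), a factor of differentiating neurons, stood at 443, 497 and 442 normalised reads with Bra and at 235, 269 and 292 with Bra+Foxa.a (-0.80 ± 0.12, adjusted p = 4.75e-04). Pou4 (KH.C2.42), a homeodomain factor of sensory neurons, stood at 196, 271 and 171 with Bra and at 109, 132 and 129 with Bra+Foxa.a (-0.76 ± 0.13, adjusted p = 0.00194). In both genes every Bra+Foxa.a library lay below every Bra library.

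The proneural factor Neurog (KH.C6.129) had 349, 385 and 296 normalised reads with Bra and 206, 256 and 249 with Bra+Foxa.a (-0.53 ± 0.11, adjusted p = 0.00863). Otx (KH.C4.84), which patterns the front of the nervous system, had 1888, 2441 and 2036 against 1421, 1745 and 1745 (-0.37 ± 0.08, adjusted p = 0.0121). The tyrosinase Tyr (KH.C12.469), the enzyme that starts melanin synthesis in the pigment cells of the brain, had 779, 562 and 583 against 366, 385 and 391.98 (-0.73 ± 0.16, adjusted p = 0.00999). None of these 3 genes overlapped between the groups, which held in this direction for 3.74% of all models tested. All 7 genes of the list were lower in all 3 pairs, as were 15.8% of all models. Islet (KH.L152.2), a factor of motor and other neurons, at -0.41 ± 0.16 (adjusted p = 0.221, and 0.0392 where only the 6 libraries entered the fit), and Msx (KH.C2.957), a homeodomain factor of the neural plate border, at -0.10 ± 0.09 (adjusted p = 0.713), did not pass. Without the block no neural gene passed (lowest adjusted p = 0.0596, for Ebf). Leaving out 1 library ended the call of Neurog (Bra replicate 1 or 2 or Bra+Foxa.a replicate 1, highest adjusted p = 0.0941), Otx (Bra replicate 2 or Bra+Foxa.a replicate 1 or 2, 0.112) and Tyr (Bra replicate 1 or Bra+Foxa.a replicate 1, 0.0960), and leaving out replicate number 1 or 2 from all groups ended that of Pou4 (0.0554 and 0.0636).

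**Figure D1:**
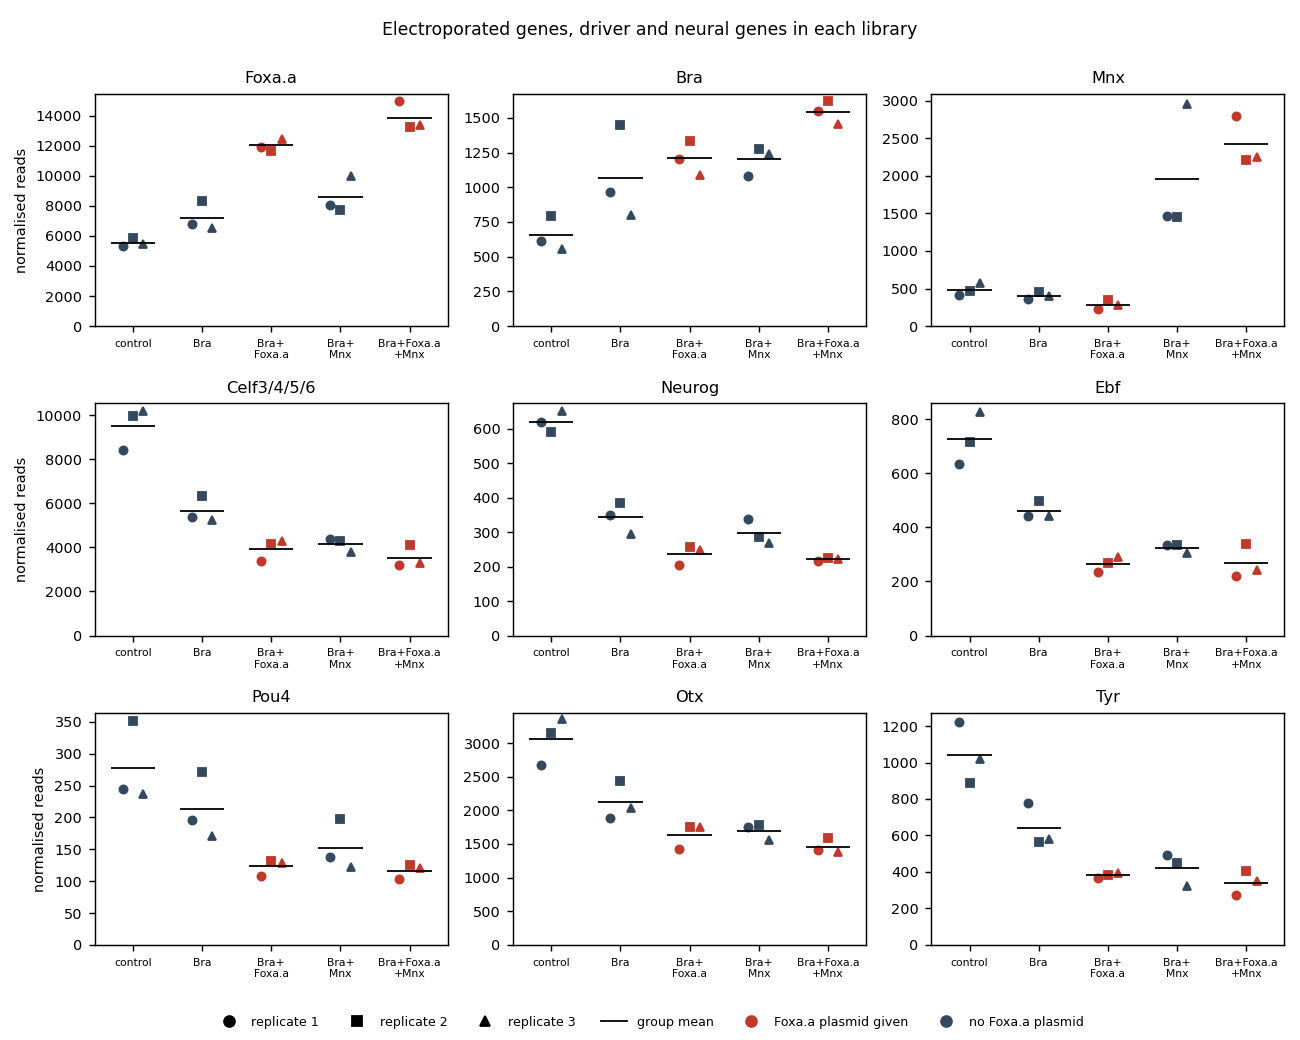
Normalised reads (linear axes from 0) of the 3 electroporated genes, the driver Celf3/4/5/6 and the 5 neural genes that fell, in each of 15 libraries. Each symbol is 1 library, shaped by replicate number and red where the Foxa.a plasmid was given, and bars are group means. Foxa.a lies at 11676 or more in every library given its plasmid and at 9953 or less in all others, and the driver and neural genes lie lower in Bra+Foxa.a than in Bra.

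Over the 5 groups, the means of the driver and of these 5 neural genes were highest in control embryos. Ebf averaged 727 ± 97.4 normalised reads in control and 460.5 ± 31.5 in Bra embryos (SD, n = 3). It averaged 325 ± 15.9 with Bra+Mnx, 265 ± 28.9 with Bra+Foxa.a and 268 ± 64.3 with all 3 factors. The last 2 values differ by less than their SD. Celf3/4/5/6 averaged 9522 ± 953, 5649.6 ± 597, 4149 ± 305, 3934 ± 503 and 3530.3 ± 507 in the same order of groups, and the last 3 groups overlap.

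Outside the nervous system, the named genes were few. Tbx2/3 (KH.L96.87), which the notochord expresses downstream of Bra, had 2725, 3861 and 2800.3 normalised reads with Bra and 3349.7, 3653 and 3882 with Bra+Foxa.a. The groups overlapped through Bra replicate 2, and the difference of 0.23 ± 0.08 did not pass (adjusted p = 0.147). It was 0.36 without that library (adjusted p = 0.00392) and 0.14 without Bra replicate 3 (adjusted p = 0.467). Mrf (KH.C14.307), the myogenic regulator of tail muscle, fell from 2299.7, 2455 and 2087 to 1643, 1928 and 1685 (-0.38 ± 0.10, adjusted p = 0.0370), a call that ended without any 1 of the 6 libraries (highest adjusted p = 0.261) and without the block (adjusted p = 0.612). Its mean was 1752 ± 154 (SD) with Bra+Foxa.a and 1758 ± 336 with Bra+Mnx, so this lower level was not particular to Foxa.a.

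Of the 4 genes of the heart lineage, Hand-r (KH.C1.1116), a basic helix-loop-helix factor, rose, and none fell, where the called share of higher genes was 2.29%. Hand-r stood at 530.3, 429 and 395 normalised reads with Bra and at 660.4, 519 and 531 with Bra+Foxa.a, so that the groups overlapped while each pair rose (0.34 ± 0.08, adjusted p = 0.0147). The call ended without Bra replicate 1 or Bra+Foxa.a replicate 3 (highest adjusted p = 0.106) and without the block (adjusted p = 0.999962). It also ended when replicate number 1, 2 or 3 was left out of all groups (adjusted p = 0.138, 0.067 and 0.108). Nkx2-5 (KH.C8.482) at 0.08 ± 0.09, Foxf (KH.C3.170) at -0.12 ± 0.08 and Gata4/5/6 (KH.L20.1) at -0.08 ± 0.09 did not pass (lowest adjusted p = 0.594). In all, 9 of the 17 named genes were called, the electroporated Foxa.a among them, beside 4.72% of all models. Without the block Foxa.a alone was called (adjusted p = 0.0111), beside 42 of all 14260 models.

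**Figure D2:**
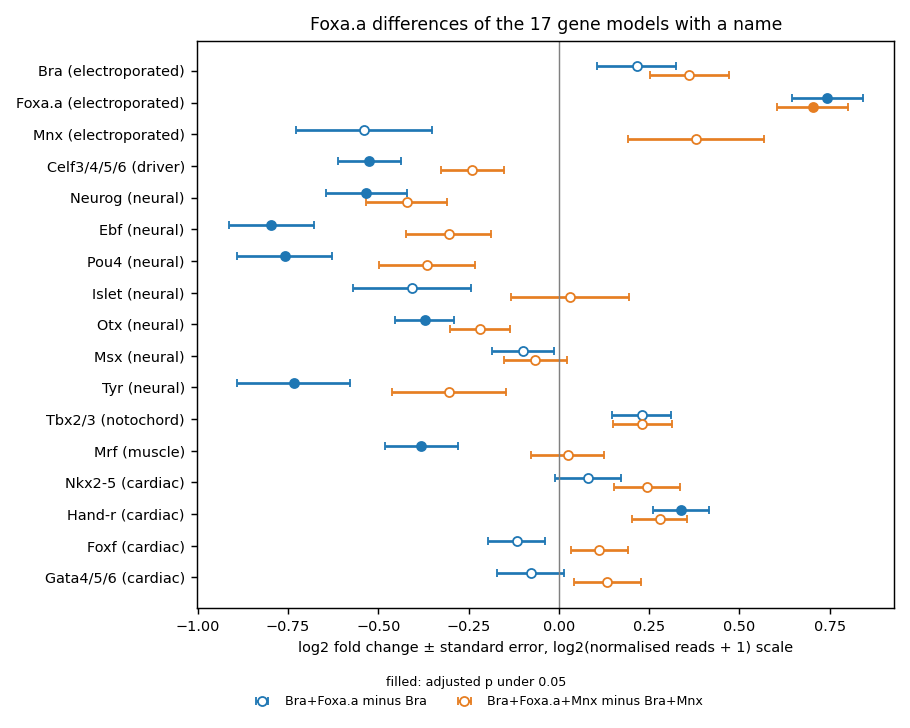
Log2 fold change with its standard error for the 17 gene models with a name, for Bra+Foxa.a minus Bra (blue) and Bra+Foxa.a+Mnx minus Bra+Mnx (orange). Filled symbols have an adjusted p under 0.05. The blue symbols of Foxa.a, the driver, 5 neural genes, Mrf and Hand-r are filled, and of the orange ones Foxa.a alone.

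Over the whole transcriptome, 326 gene models were higher and 347 lower in Bra+Foxa.a than in Bra, of 14260 tested, 4.72% in all (limma, replicate block). Among called models the risers changed by more: their median log2 fold change was 0.75, 120 of them rose at least 2-fold and 27 at least 4-fold. The 2 lists differ in read support, as given below, and a small change passes more easily at many reads. The median of the 347 was -0.50, with 29 that fell at least 2-fold and 5 at least 4-fold. All 326 were higher in all 3 pairs and 345 of the 347 lower, beside 14.9% and 15.8% of all models. The groups did not overlap for 230 of the 326 and 219 of the 347, beside 3.95% and 3.74% of all models. A call in a fit with pairs largely fixes both counts, so they only describe the lists.

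The block carried most of these calls. Without it 31 models were higher and 11 lower, and all 42 were among those called with it. Without Bra replicate 1 there were 170 higher and 162 lower, without Bra+Foxa.a replicate 1 there were 164 and 151, without Bra+Foxa.a replicate 2 there were 233 and 205, and without Bra+Foxa.a replicate 3 there were 211 and 214.

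Both lists spanned a wide range of read support, given here by the level in Bra embryos as a description, since that level is also the baseline of the contrast that chose the genes. In Bra embryos 29 of the 326 averaged under 10 normalised reads, 86 from 10 to under 100, 156 from 100 to under 1000 and 55 at least 1000. The same classes held 1, 36, 143 and 167 of the 347. Among all models tested the shares were 11.7%, 21.0%, 40.5% and 26.8%. Reads per gene also scale with transcript length, and a small change passes more easily at many reads, so these classes describe read support rather than expression.

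**Figure D3:**
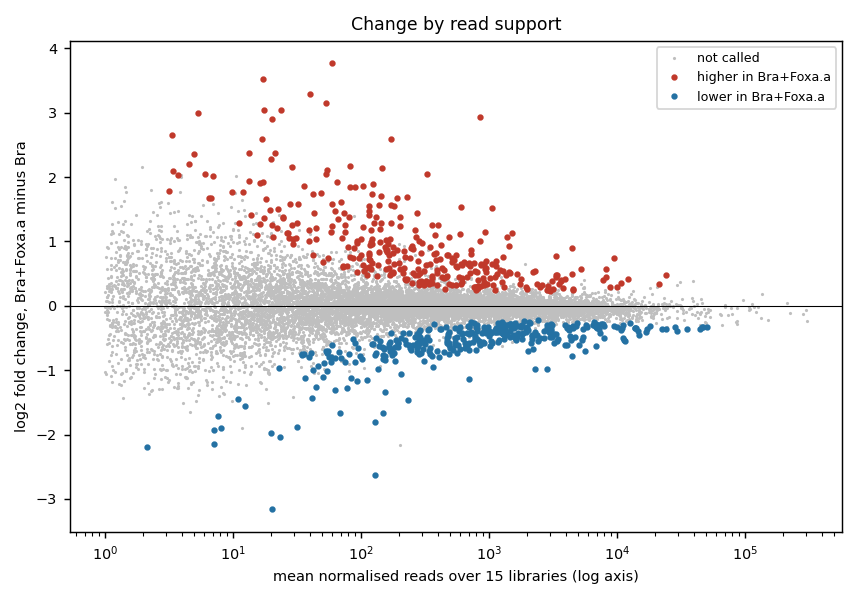
Log2 fold change of Bra+Foxa.a minus Bra against the mean normalised reads over 15 libraries (log axis), 1 point per gene model. Red points (326) were called higher and blue points (347) lower. The largest rises lie at low and middle read support, and at high support the called changes are small in both directions.

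The 2 models with the largest rise had few reads wherever Foxa.a was not given. KH.C9.887 had 7.43, 9.31 and 11.6 normalised reads in the Bra libraries and 73.9, 136 and 270.1 in the Bra+Foxa.a libraries (3.77 ± 0.33, adjusted p = 4.08e-06). It had 4.20 to 6.17 in control embryos, 5.10 to 24.3 with Bra+Mnx and 80.2 to 158 with all 3 factors. All 6 libraries given Foxa.a lay above all 9 that were not, but the rule that chose the model required this of Bra+Foxa.a against Bra. Outside that rule, every library with all 3 factors lay above every control and Bra+Mnx library. KH.C14.570 had 0.929, 2.33 and 12.6 with Bra and 23.1, 43.1 and 122.9 with Bra+Foxa.a (3.52 ± 0.45, adjusted p = 1.22e-04, and 0.101 without the block). With all 3 factors it had 6.55, 13.3 and 13.97 and with Bra+Mnx 2.55, 3.02 and 7.30, groups that overlap (1.26 ± 0.45, adjusted p = 0.234). The test of whether Foxa.a acted differently on it in the presence of Mnx did not pass (-2.26 ± 0.63, adjusted p = 0.387).

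The 2 models that fell most were ones that stood far above control in Bra embryos. Choosing them by their fall from Bra favours a high level in those libraries, so this only describes them. KH.L147.40 had 18.5, 33.6 and 21.0 normalised reads in control, 176, 286 and 203 with Bra, and 25.4, 52.7 and 30.2 with Bra+Foxa.a (-2.62 ± 0.16, adjusted p = 5.72e-08). It was as high with Bra+Mnx (213, 342 and 370.1) and again low with all 3 factors (38.5, 76.3 and 50.5; -2.48 ± 0.16, adjusted p = 2.86e-07). With Bra+Foxa.a it lay above control in every same-numbered pair (0.53 ± 0.16), given with no test since these Bra+Foxa.a libraries entered its choice. With all 3 factors, in libraries that did not enter its choice, it was also above control (1.14 ± 0.16, adjusted p = 5.81e-05). KH.S461.7 had 5.29, 8.40 and 4.42 in control, 63.2, 75.6 and 45.3 with Bra, and 7.70, 17.3 and 1.01 with Bra+Foxa.a (-3.16 ± 0.58, adjusted p = 0.00278, and 0.0754 without the block). Its size rests in part on Bra+Foxa.a replicate 3, without which it was -2.22. With Mnx present its levels were 11.04, 23.1 and 28.0 without and 5.73, 2.423 and 8.60 with Foxa.a, which did not pass (-1.75 ± 0.58, adjusted p = 0.181).

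**Figure D4:**
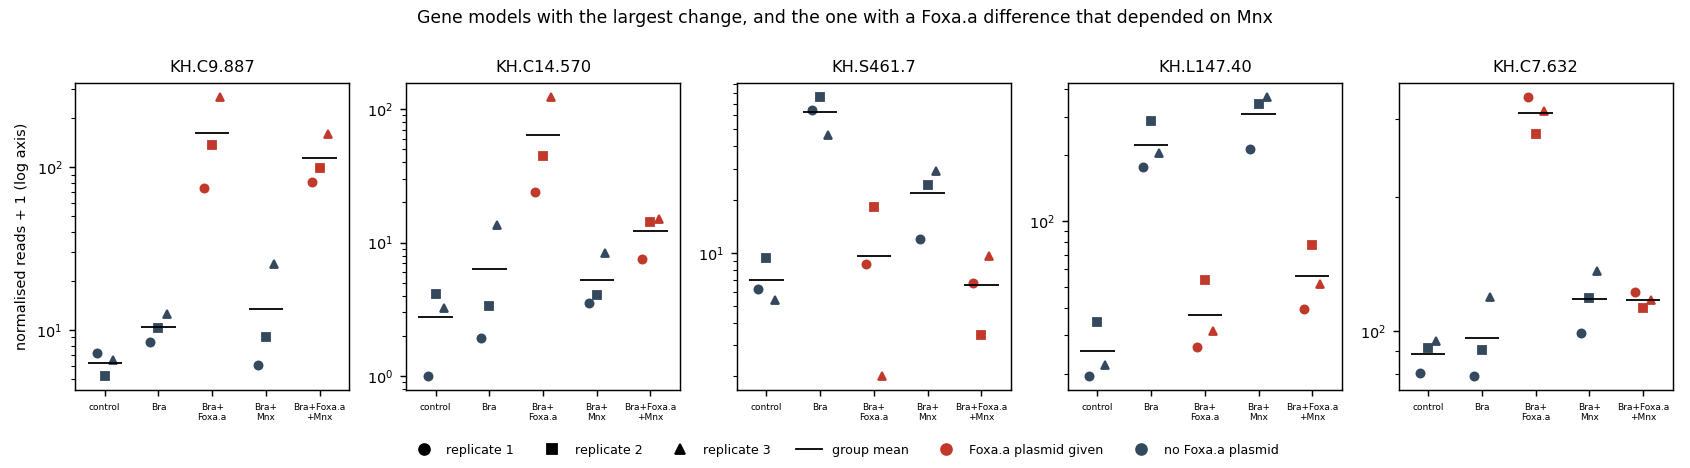
Normalised reads + 1 (log axes) of the 2 gene models that rose most, the 2 that fell most and KH.C7.632, in each of 15 libraries, with symbols as in the plot of named genes. KH.C9.887 is high and KH.L147.40 low wherever Foxa.a was given on top of Bra, with or without Mnx, while KH.C7.632 is high in Bra+Foxa.a alone.

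The series adds Foxa.a a second time, to embryos given Bra and Mnx, in 6 libraries that share none with the first comparison. There 151 models were higher and 109 lower with Foxa.a (1.06% and 0.764% of those tested). Of the 326 models raised by Foxa.a without Mnx, 99 were also called higher with it, which is 30.4% of the first list and 65.6% of the second, and none was called lower. Of the 347 lowered models 51 were also called lower, 14.7% and 46.8% of the 2 lists, and none was called higher. The sign was the same for 293 of the 326 and 330 of the 347, where 49.3% of all models lay above 0 and 50.7% below. Without the block the lists shared 10 higher models and 1 lower one. Leaving out 1 of the 12 libraries gave 62 to 104 shared higher and 32 to 49 shared lower, with 62 and 35 without Bra+Mnx replicate 1 and 63 and 32 without Bra+Foxa.a+Mnx replicate 1. Leaving out a replicate number from all groups gave 43 and 36 without number 1, 61 and 14 without number 2, and 73 and 49 without number 3.

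The differences with Mnx were smaller for genes chosen without it: the 326 had a median of 0.33 and the 347 of -0.22. Genes chosen by a threshold in one set of libraries are at their largest in that set, so the medians were also read the other way. The 151 models called higher with Mnx had a median of 0.61 there and 0.58 without Mnx, and the 109 called lower had -0.76 and -0.49. Across all 14260 models the 2 differences correlated at r = 0.36, a description across genes that are not independent replicates.

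None of the 7 neural genes was called in the libraries with Mnx, where 1.06% of all models were called higher and 0.764% lower. The median of the 7 there was -0.30, with Neurog nearest to the threshold (-0.42 ± 0.11, adjusted p = 0.0685). In all 3 pairs 4 of the 7 were lower, but the share of all models that did so with Mnx was not computed. The interaction test did not pass for any of the 17 named genes (lowest adjusted p = 0.457, for Mnx), so a smaller Foxa.a difference in the presence of Mnx is not shown for the neural genes. The largest of these interactions among them was that of Ebf, 0.49 ± 0.17 (adjusted p = 0.604).

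**Figure D5:**
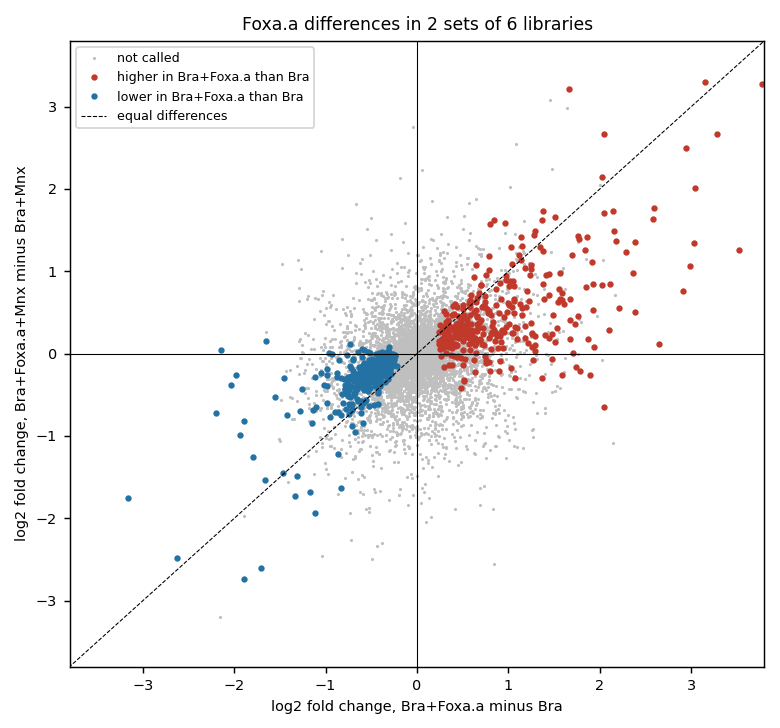
Log2 fold change on adding Foxa.a to Bra (horizontal) and to Bra+Mnx (vertical), 1 point per gene model. Red points were called higher and blue points lower in the horizontal comparison, and the dashed line marks equal differences. Of the red points 293 of 326 lie above 0 on the vertical axis and of the blue points 330 of 347 lie below it.

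A single model of 14260 passed the test of whether the Foxa.a difference depended on Mnx (0.00701%, limma, with 886 at an unadjusted p under 0.05), and it is named for that reason after its values were seen. Among 14260 models many fall under an unadjusted p of 0.05 with no true difference, so the 886 are not a count of interactions. KH.C7.632 had 78.0, 89.6 and 118 normalised reads with Bra and 336, 277 and 312 with Bra+Foxa.a (1.70 ± 0.14, adjusted p = 2.72e-06). With Mnx it had 97.7, 118 and 135 without Foxa.a and 121, 111 and 116 with it (0.00 ± 0.14). The difference between the 2 was -1.70 ± 0.20 (adjusted p = 0.00171), and it did not pass without the block (adjusted p = 0.157) or without the libraries of replicate number 2 (adjusted p = 0.133).

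Bra+Mnx and control embryos share no library with the comparison of Bra+Foxa.a and Bra. They show separately how embryos given Bra together with Mnx differ from control for the genes that Foxa.a moved. In this comparison the parts of Bra and of Mnx cannot be told apart. Of the 326 raised models 154 (47.2%) were higher in Bra+Mnx than in control and 4 were lower, where 7.51% and 5.55% of all models were called. Of the 347 lowered models 192 (55.3%) were lower and 28 (8.07%) higher. Their median log2 fold changes were 0.44 and -0.33, against 0.00 for all models. These overlaps make up 14.4% of the models called higher and 24.3% of those called lower in Bra+Mnx. The comparison was chosen after the data were seen.

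The comparisons of Bra and of Bra+Foxa.a with control use the same libraries as the contrast that chose the genes, so their values are given side by side with no test. For the 326 the median log2 fold change was 0.36 for Bra and 1.18 for Bra+Foxa.a against control, and for the 347 it was -0.12 and -0.57. The 120 models that rose at least 2-fold had median normalised reads of 31.4 with Bra and 108.9 with Bra+Foxa.a, beside 14.1 in control, 39.3 with Bra+Mnx and 71.0 with all 3 factors. For the 29 that fell at least 2-fold these medians were 77.6 and 30.6, beside 23.1, 56.0 and 26.2. The choice of both sets largely fixed the order of their Bra and Bra+Foxa.a medians. Among the other 3 groups, the median of the 29 was highest with Bra+Mnx.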

How the data were processed

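The deposited values are a signal: per the file headers, the authors normalised gene counts to library size, separately in each of 4 tables of 15284 gene models. Alignment and normalisation tools named in the submitters' processing notes are TopHat2 (2.9.8b) and DESeq (1.8.1). Genome build, read counter and strand setting were not given in the sources used here. In all 24 columns used, 100% of the values were whole multiples of 1 step within a tolerance of 0.01, and division by that step gave reads; control reads were identical in the 4 tables. The 24 columns of regularized log values were not used.

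Reads were scaled together by median-of-ratios size factors. limma 3.58.1 in R 4.3.3 (limma-trend, Benjamini-Hochberg adjustment) was fitted on log2(value + 1) over gene models with a mean of at least 1, with the group and the replicate number as terms. The numbers come from the sample titles. Same-numbered Bra and Bra+Foxa.a libraries deviated together from their group means in every pair (r = 0.59 to 0.69, other pairs -0.40 to -0.15). Deviations cancel within a group, so the negative values of the other pairs largely follow from the positive ones and are no separate evidence. Replicates within the Bra and the Bra+Foxa.a groups were distinct libraries (chi-square over its degrees of freedom at least 15.2). The other groups were not checked in this way. edgeR 4.0.16 and DESeq2 1.42.0 on recovered reads, with the block, were alternatives, and the main fit was tested on simulated data. Gene models beyond the 17 named are the 2 that rose and 2 that fell most among those called, with at least 1 CPM in the higher group, all 3 pairs alike and no overlap. The members, lists and tests were chosen with earlier results of these data known.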

Additional observations from a re-analysis of the deposited data

Results flagged for a closer look

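The Foxa.a difference of KH.C7.632 differed between embryos with and without Mnx by -1.70 on the log2 scale (interaction in limma, adjusted p = 0.00171), as described above. No group had more than 3 samples, so single samples were not tested against their group.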

How the results depend on the processing

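Without the replicate block the counts were 31 higher, 11 lower, 18 changed with Mnx and 0 interactions. The 1 interaction became 8 where only the libraries compared entered the fit, 2 with TMM scaling, 3 with a pseudocount of 5, 4 with edgeR and 29 with DESeq2, so its count depends on the tool. With the block, edgeR called 382 models higher and 400 lower and DESeq2 340 and 385 on adding Foxa.a to Bra. The settings that kept the block and every library compared gave 304 to 454 higher, 306 to 452 lower and 238 to 324 changed with Mnx. Leaving out 1 library or 1 replicate number gave 144 to 336 higher, 129 to 359 lower, 95 to 224 changed with Mnx and 0 to 8 interactions. The lowest of the first 3 came without replicate number 1 (144) and number 2 (129 and 95), and 168 were changed with Mnx without Bra+Mnx replicate 2. There were 8 interactions without Bra+Foxa.a+Mnx replicate 1, 5 without Bra+Foxa.a replicate 2, 3 without Bra+Mnx replicate 1, and 2 without Bra+Foxa.a+Mnx replicate 3. With the same omissions 2 uncalled genes changed sign, Nkx2-5 (-0.0805 to 0.209) and Gata4/5/6 (-0.195 to 0.0861). Islet passed without replicate number 3 (adjusted p = 0.0373). The cause of these changes was not tested. Low read support limits KH.C14.570 and KH.S461.7.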
